A study of Mus musculus with 9 samples.

Results

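The aryl hydrocarbon receptor (AhR, gene Ahr), its partner Arnt and 7 genes known as its targets were followed through a period of culture in dendritic cells that carry CD103, the integrin chain encoded by Itgae. The 9 genes are Ahr, Ahrr, Arnt, Cyp1a1, Cyp1b1, Tiparp, Aldh3a1, Ugt1a6a and Ugt1a6b, each matched by its symbol to 1 of the 45535 rows that carry a gene symbol (49317 rows in all). They were selected on their known roles in this pathway with the difference between the groups in these samples already in view. Their values before and after culture are therefore given as a description, with no p-value. All 9 passed the filter on low values, a mean normalized read count of at least 10.

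The cells came from lungs of C57/BL6j mice given bleomycin, a drug that injures the lung and is used to model fibrosis, for 7 days. Lungs were digested with collagenase and CD103+ cells were pulled out with magnetic beads. RNA was taken either directly (before culture, 5 samples) or once the cells had spent 18 h in RPMI supplemented with fetal bovine serum and penicillin/streptomycin (after culture, 4 samples). Both groups share strain, bleomycin, digestion and bead isolation, and no untreated lung or second time point is used here. The labels give no age or sex of the mice and do not say whether a sample is 1 mouse or a pool, so the spread between samples may be partly technical.

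AhR is a transcription factor of the bHLH-PAS family that is bound and activated by small aromatic molecules, among them pollutants, dietary indoles and products of tryptophan breakdown. Without ligand it rests in the cytosol with HSP90 and co-chaperones. With ligand it enters the nucleus, pairs with ARNT and binds DNA elements around the core GCGTG. Its targets include cytochrome P450 enzymes that can destroy the ligand, and AHRR and TIPARP, which restrain the receptor. In dendritic cells AhR is known to influence differentiation and tolerance to antigen.

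Depth in rows with a gene symbol ran from 14.7 to 28.8 M reads before and from 26.0 to 35.3 M reads after culture. A single read counted for between 0.758 and 1.79 after the authors' scaling. Summed over 11 markers of type 1 conventional dendritic cells, the lung dendritic cells that most often carry CD103, the normalized count was 143423 to 172698 before and 32451 to 36273 after culture. Of these markers 8 were called lower and 3 higher (limma adjusted p under 0.05). Over all 18202 genes tested 34.6% were called lower and 34.2% higher. Single markers are named here after their values were seen. Before culture Wdfy4 made up the largest share of the sum, at 75717 ± 6275 (SD, n = 5). It had 4761 ± 811 (SD, n = 4) after culture, and Itgae went from 18138 ± 1537 to 1727 ± 335. Flt3, Batf3 and Zbtb46 were the 3 called higher, Flt3 from 8170 ± 638 to 13082 ± 1988. After culture Flt3 made up the largest share of the sum. Of 10 markers of mature dendritic cells 8 were called higher, among them Ccr7 (7918 ± 372 to 53005 ± 2238), and 2 lower, Cd83 (14237 ± 731 to 9537 ± 875) and Cd86 (5620 ± 903 to 4083 ± 567).

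Markers of other cells were also read. All 10 endothelial markers were called lower, with a summed level of 25998 to 37916 before and 3534 to 4647 after culture, as were all 10 fibroblast markers (18736 to 33553 and 2370 to 4709). Of 7 neutrophil markers tested 6 were called lower, among them Trem1 (5047 ± 896 to 43.2 ± 12.7), and Mmp8 higher (401 ± 93.4 to 9876 ± 3673). Mmp8 thus made up most of the neutrophil sum after culture, which was 13106 to 22538 before and 6905 to 14831 after. Of 12 macrophage and monocyte markers 2 were called higher and 4 lower (38206 to 60873 and 33432 to 65437). Of 10 markers of T cells and innate lymphoid cells 2 were called higher, 4 lower and 4 neither, with a median log2 fold change of −0.060. Their sum was 7536 to 9406 before and 17148 to 20340 after culture, and most of that difference was Il7r, which went from 2611 ± 412 to 13276 ± 1113, while Cd3e had 1383 ± 95.2 and 1552 ± 193. No gene on these lists was at 0 in every sample. Ly6g, which defines neutrophils, was under the filter, with 2 to 10 reads a sample before culture and 0 in all 4 samples after it. In such bulk samples fewer cells of a type and less RNA per cell cannot be told apart, and the part of these other cells in the values below was not tested.

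Promoter sequence was looked at first, because the targets share a binding element. RefSeq promoters (GRCm38.p6, 250 bases before to 50 after the annotated start) were at hand for 6 of the 9 genes, namely Ahrr, Arnt, Cyp1a1, Cyp1b1, Tiparp and Ugt1a6a. The core GCGTG was searched on both strands, as was the longer TNGCGTG, which contains it. Among 32851 promoters of this length, 32.4% held the core and 5.07% the longer form, and among the 15116 promoters of genes tested here the shares were 46.9% and 7.24%. Of the 6 promoters, 5 held the core, and these are printed 5′ to 3′ on the strand of the gene, with the core in capitals (CACGC where it lies on the opposite strand). They lie at chr13:74292282-74292581 (Ahrr, minus strand), chr9:57697363-57697662 (Cyp1a1, plus strand), chr17:79715012-79715311 (Cyp1b1, minus strand), chr3:65528197-65528496 (Tiparp, plus strand) and chr3:95434140-95434439 (Arnt, plus strand).
Ahrr: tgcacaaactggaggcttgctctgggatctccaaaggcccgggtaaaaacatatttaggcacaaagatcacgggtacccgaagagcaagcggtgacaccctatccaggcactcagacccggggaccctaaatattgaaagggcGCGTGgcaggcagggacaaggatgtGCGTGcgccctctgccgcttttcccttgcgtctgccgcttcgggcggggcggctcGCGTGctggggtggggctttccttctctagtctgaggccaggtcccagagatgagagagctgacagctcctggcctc
Cyp1a1: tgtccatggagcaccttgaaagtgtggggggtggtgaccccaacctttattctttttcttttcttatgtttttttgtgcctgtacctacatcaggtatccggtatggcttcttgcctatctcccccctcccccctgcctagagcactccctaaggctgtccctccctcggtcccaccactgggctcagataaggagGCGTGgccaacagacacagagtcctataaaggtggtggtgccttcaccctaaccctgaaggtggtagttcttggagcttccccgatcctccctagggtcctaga
Cyp1b1: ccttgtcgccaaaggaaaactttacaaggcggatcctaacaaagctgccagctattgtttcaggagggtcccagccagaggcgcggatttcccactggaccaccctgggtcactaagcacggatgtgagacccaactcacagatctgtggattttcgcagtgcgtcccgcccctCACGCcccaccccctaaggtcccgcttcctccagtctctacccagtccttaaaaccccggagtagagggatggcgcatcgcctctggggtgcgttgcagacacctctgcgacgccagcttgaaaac
Tiparp: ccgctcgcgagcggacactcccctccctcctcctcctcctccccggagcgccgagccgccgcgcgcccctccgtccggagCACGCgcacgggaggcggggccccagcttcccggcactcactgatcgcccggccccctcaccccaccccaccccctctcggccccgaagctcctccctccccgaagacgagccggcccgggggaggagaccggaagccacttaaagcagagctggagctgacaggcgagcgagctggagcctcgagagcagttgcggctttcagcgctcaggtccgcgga
Arnt: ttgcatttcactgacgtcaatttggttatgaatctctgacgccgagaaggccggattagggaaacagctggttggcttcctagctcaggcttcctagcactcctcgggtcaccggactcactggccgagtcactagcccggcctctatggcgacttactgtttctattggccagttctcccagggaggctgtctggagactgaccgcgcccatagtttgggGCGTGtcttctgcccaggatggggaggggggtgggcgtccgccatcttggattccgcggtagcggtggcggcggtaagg

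The Ahrr promoter held 3 copies of the core, beginning 107, 82 and 27 bases before the start, and 6.69% of the promoters of tested genes held 3 or more. The copy nearest the start was the only match of the 5 promoters to the longer form. Cyp1a1 held its copy 54 bases before the start, Arnt 29, Cyp1b1 76 and Tiparp 170, the last 2 on the opposite strand. Ugt1a6a held none in this window. The start that RefSeq gives for Cyp1a1 lies inside the span that GENCODE gives the gene. The response elements of Cyp1a1 that are best known lie further upstream than the window reaches. A match is a run of letters and not a measured binding site, and the window is short.

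**Figure D1:**
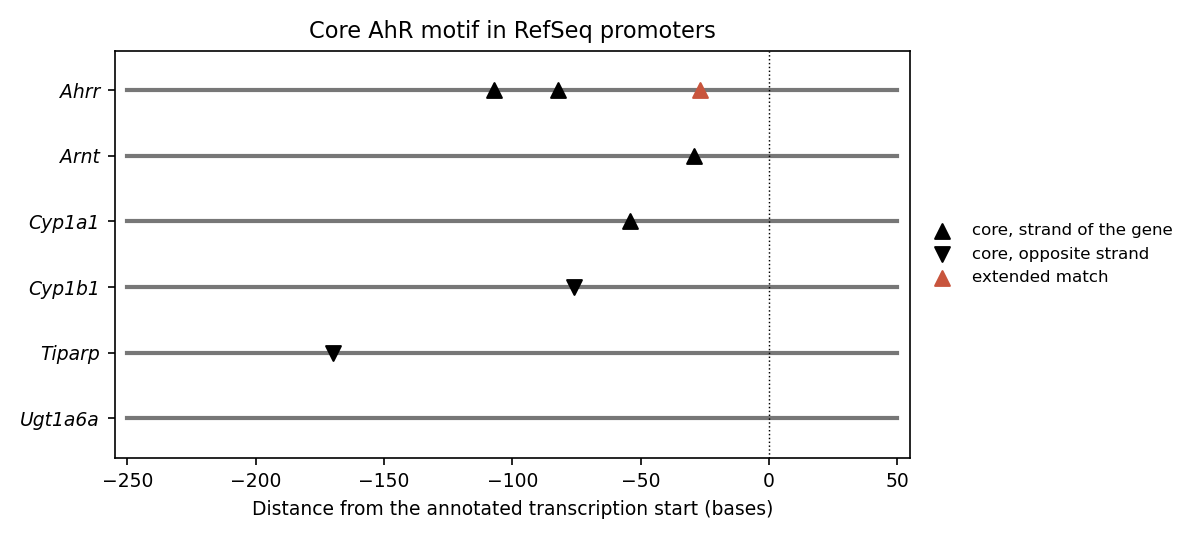
Position of the core motif in the 6 RefSeq promoters, in bases from the annotated start (x axis), with 1 line per gene, triangles up for the strand of the gene and down for the opposite strand, and the extended match in red. Ahrr carries 3 of the 7 matches and the only extended one, and Ugt1a6a carries none.

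Ahr itself, the receptor gene (GENCODE M21, GRCm38, chr12:35497974-35535038, minus strand, protein coding), was lower after culture. Its normalized read count was 9450, 8473, 8708, 9839 and 8767 in replicates 1 to 5 before culture and 2916, 3121, 2685 and 2899 in replicates 1 to 4 after culture. Every sample after culture lay below every sample before it, and the spread within either group was small. The means were 9048 ± 573 (SD, n = 5) and 2905 ± 178 (SD, n = 4), a 3.11-fold lower level, and the log2 fold change on the log2(value + 1) scale was −1.64 with a standard error of 0.072. The lower level still placed Ahr among the more abundant transcripts. The comparison took the 17513 genes that passed the filter and have a known length. Per kilobase of merged exon, Ahr stood above 96.1% of them before culture and above 85.8% after it.

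Arnt (chr3:95434388-95497240, plus strand), which encodes the partner without which AhR does not bind DNA, did not separate the groups. It had normalized counts of 2304, 2341, 2299, 2472 and 2443 before culture and of 1995, 2436, 1964 and 2313 after it. The groups overlapped. The means were 2372 ± 80.8 (SD, n = 5) and 2177 ± 234 (SD, n = 4), with a log2 fold change of −0.13 and a standard error of 0.078. Within a sample, Ahr per kilobase of merged exon was 4.66 to 5.33 times Arnt before culture and 1.63 to 1.90 times Arnt after it. The ratio depends on the length used. Merged exons are 6163 bases for Ahr and 8007 for Arnt, and the longest transcripts are 5548 and 4325. Which of the pair was the more abundant after culture is therefore not settled.

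Ahrr (chr13:74211118-74292331, minus strand) encodes the AhR repressor, which resembles the receptor, competes for ARNT and is itself switched on by AhR. It differed most of the 9 genes between the groups. Its normalized count was 24.8, 8.66, 21.3, 17.6 and 10.7 before culture, resting on 6 to 26 reads a sample, and 1434, 1312, 1797 and 1820 after culture. All samples before culture were near the limit of what was read, and all after culture were far above it. The means were 16.6 ± 6.84 (SD, n = 5) and 1591 ± 257 (SD, n = 4), a 95.8-fold higher level, and the log2 fold change was 6.58 with a standard error of 0.26. Of the 18202 genes tested, 5 had a larger log2 fold change. Relative to other genes that passed the filter, Ahrr moved from the lowest part of the range to the upper middle. Per kilobase it stood above 1.04% of them before culture and above 65.8% after it. Genes under the filter were not part of this comparison.

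The balance of receptor and repressor transcripts follows from these values and does not depend on how the samples were scaled. Ahr per kilobase was 585, 1498, 626, 857 and 1251 times Ahrr in replicates 1 to 5 before culture. After culture it was 3.12, 3.65, 2.29 and 2.44 times Ahrr in replicates 1 to 4. The receptor transcript was the higher in all 9 samples, by a far smaller margin after culture. The size of this ratio depends on the length used, since Ahrr has 9441 bases of merged exon and a longest transcript of 5099. Against the shared partner, Ahrr per kilobase was 0.0031 to 0.0091 of Arnt before and 0.457 to 0.776 of Arnt after culture.

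Tiparp (chr3:65528410-65555518, plus strand) encodes PARP7, an ADP-ribosyltransferase that AhR induces and that modifies the receptor and restrains it. Unlike Ahrr, it was lower after culture. Its normalized count was 4423, 4680, 5007, 5210 and 5066 before culture and 1822, 1933, 1906 and 2031 after it. The groups lay well apart. The means were 4877 ± 320 (SD, n = 5) and 1923 ± 85.9 (SD, n = 4), a 2.54-fold lower level, with a log2 fold change of −1.34 and a standard error of 0.070. Its size was near that of Ahr, and Ahr per kilobase was 1.22 to 1.51 times Tiparp before and 0.996 to 1.14 times Tiparp after culture. A pseudogene on the opposite strand, 4931440P22Rik, covers 223 exonic bases of Tiparp and went from 295 ± 50.2 (SD, n = 5) to 115 ± 7.78 (SD, n = 4), and whether the counting used strand is not given in the sources used here.

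**Figure D2:**
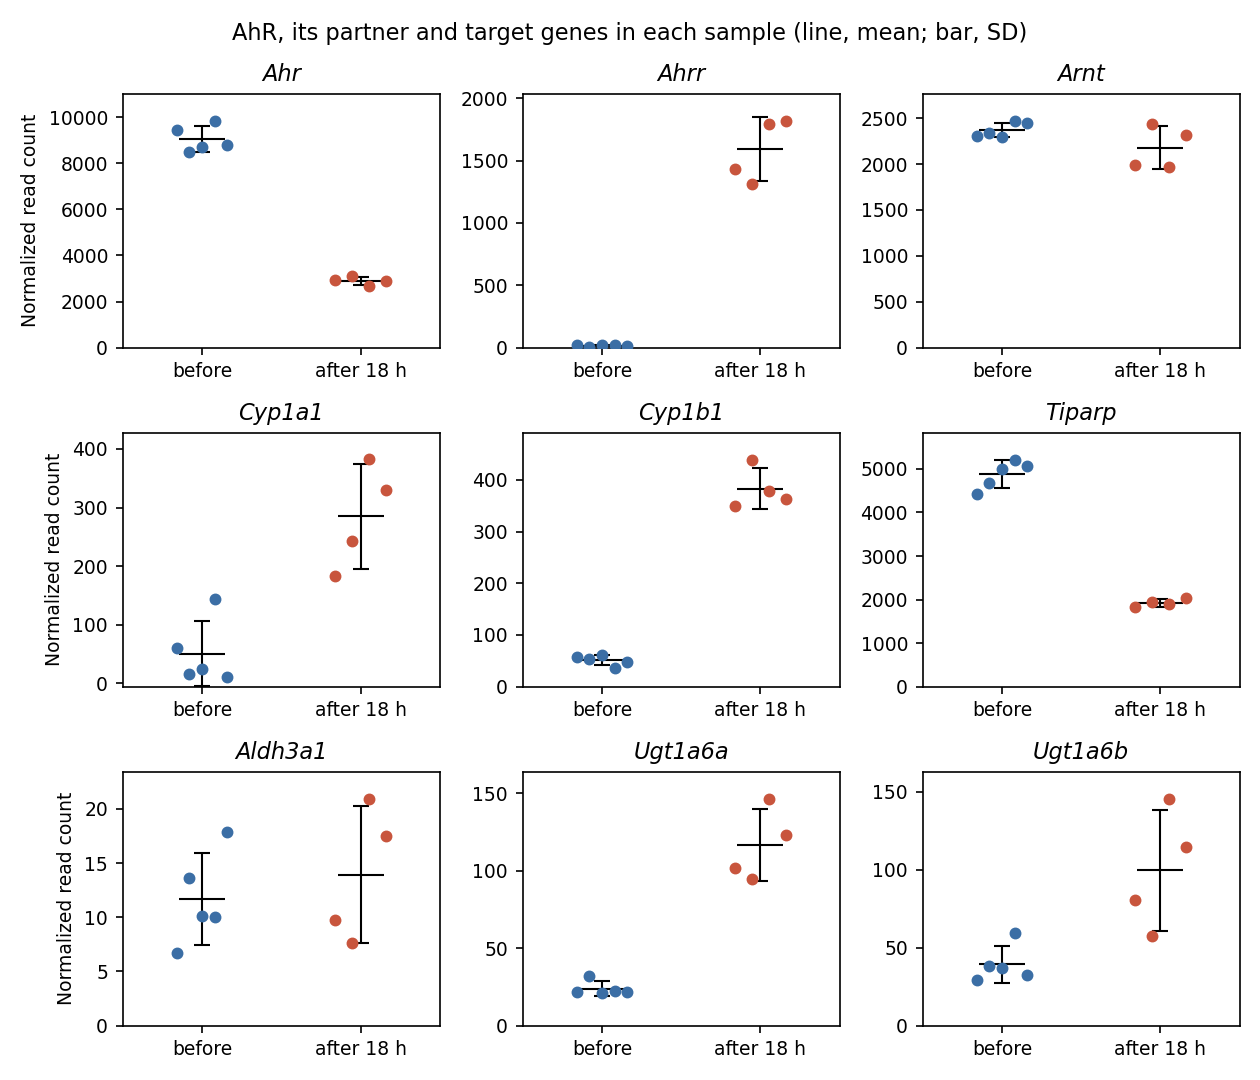
Normalized read count (y axis, linear, 1 scale per panel) of each of the 9 genes in the 5 samples before and the 4 samples after 18 h of culture, with the mean (line) and SD (bar). Ahr and Tiparp lie lower after culture without overlap, Ahrr, Cyp1a1, Cyp1b1 and Ugt1a6a lie higher without overlap, and Arnt, Aldh3a1 and Ugt1a6b overlap.

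The cytochrome P450 enzymes of family 1 oxidise aromatic compounds, AhR ligands among them, and are the classical readout of an active receptor. Cyp1b1 (chr17:79701537-79715061, minus strand) had normalized counts of 57.1, 54.4, 61.7, 36.0 and 48.3 before culture and of 350, 439, 379 and 363 after it. Every sample after culture was well above every sample before. The means were 51.5 ± 9.94 (SD, n = 5) and 383 ± 39.3 (SD, n = 4), a 7.43-fold higher level, with a log2 fold change of 2.89 and a standard error of 0.17. The summed fibroblast and endothelial markers, whose cells can also express Cyp1b1, were lower after culture, and their part in the Cyp1b1 level was not tested.

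Cyp1a1 (chr9:57687928-57703824, plus strand) was also higher after culture, from a far less even start. Its normalized count was 60.0, 16.1, 23.6, 143 and 10.7 before culture and 183, 243, 382 and 331 after it. The groups did not overlap, though replicate 4 before culture came close to replicate 1 after it. The means were 50.7 ± 55.1 (SD, n = 5) and 285 ± 88.9 (SD, n = 4), a 5.62-fold higher level, with a log2 fold change of 3.03 and a standard error of 0.58. Before culture the SD was 109% of the mean for Cyp1a1, against 19.3% for Cyp1b1. Per kilobase, Cyp1a1 was 0.466 to 8.33 times Cyp1b1 before culture and 1.10 to 2.11 times Cyp1b1 after it.

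Cyp1a1 is inducible in lung epithelium and endothelium as well, so its values are set beside those of other cells. Replicate 4 before culture and replicate 3 after culture, both numbered 4 in their library names, had the highest Cyp1a1 of their groups. They also had the highest summed level of 12 lung epithelial markers, 46094 against 27009 to 31849 in the other samples before culture, and 10946 against 6511 to 7038 in the others after it. The single markers did not all go this way. Sftpc was 16826 against 4296 to 7467 before culture and 3606 against 819 to 1142 after it. Napsa, at 7064 and 1528, was the lowest of its group in both. Replicate 1 before culture, second in Cyp1a1, had an epithelial sum of 28097, within the range of the rest. Across the groups the order was the reverse, since the epithelial sum was lower in all 4 samples after culture, where Cyp1a1 was higher. Of the 12 epithelial markers 9 were called lower and 1 higher. The libraries numbered 4 had endothelial sums of 34319 before and 4591 after culture, below the highest of their groups (37916 and 4647). Their macrophage and monocyte sums, 38206 and 33432, were the lowest of their groups. Their sums of T cell and innate lymphoid markers, 9406 and 20340, were the highest of their groups, as for the epithelial markers. Without the libraries numbered 4, the Cyp1a1 means were 27.6 ± 22.2 (SD, n = 4) and 252 ± 74.3 (SD, n = 3), a 9.14-fold higher level. The part of RNA from any of these cells in the Cyp1a1 level was not tested.

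**Figure D3:**
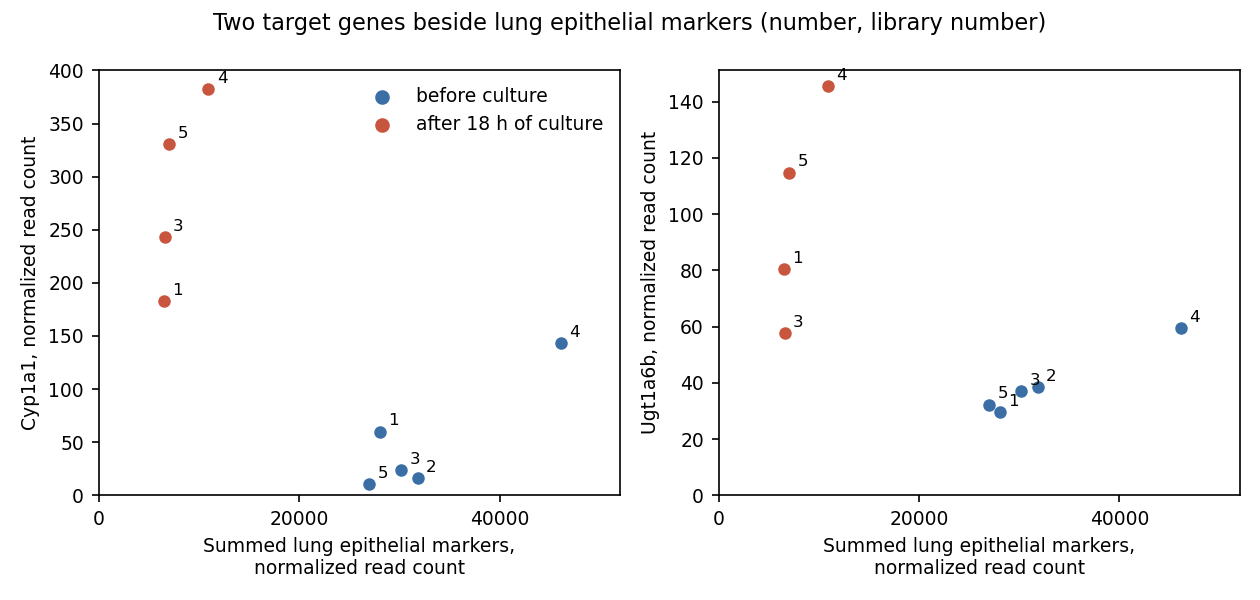
Normalized read count of Cyp1a1 (left) and Ugt1a6b (right) on the y axis against the summed normalized count of 12 lung epithelial markers on the x axis, 1 point per sample, labelled with the number in the library name. Library 4 is highest on both axes within each group, and the samples after culture lie to the left of and above those before it, with Ugt1a6b of library 4 before culture slightly above that of library 3 after it.

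The phase II enzymes of the classical AhR gene battery conjugate or oxidise what the P450 enzymes produce. Ugt1a6a (chr1:88134809-88218997, plus strand), which encodes a UDP-glucuronosyltransferase for phenols, had normalized counts of 21.9, 32.2, 21.3, 22.6 and 21.5 before culture and of 102, 94.8, 146 and 123 after it. The groups did not overlap. The means were 23.9 ± 4.66 (SD, n = 5) and 116 ± 23.4 (SD, n = 4), a 4.88-fold higher level, with a log2 fold change of 2.24 and a standard error of 0.21. Ugt1a6b (chr1:88103252-88219003, plus strand), its near copy, had counts of 29.5, 38.4, 37.0, 59.4 and 32.2 before and of 80.4, 57.6, 146 and 115 after culture. Here replicate 4 before culture exceeded replicate 2 after it, so the groups overlapped. The means were 39.3 ± 11.8 (SD, n = 5) and 99.6 ± 38.6 (SD, n = 4), a 2.53-fold higher level, with a log2 fold change of 1.28 and a standard error of 0.28. As for Cyp1a1, the highest sample of each group was the library numbered 4, and without both of these the level was 2.46-fold higher.

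The genes of the Ugt1a cluster have their own first exons and share the remaining ones. Of the 50-base windows of the longest Ugt1a6a transcript, 38.9% also occur in another gene, and of those of Ugt1a6b 80.7%, in each case most often in Ugt1a7c. How reads in the shared exons were assigned is not given in the sources used here, so the level of either gene is uncertain. Ugt1a7c itself, not a member, went from 808 ± 50.4 (SD, n = 5) to 1355 ± 222 (SD, n = 4). Ugt1a9 had no read in any sample before culture and 27 to 43 reads a sample after it, at least 7.70-fold higher against a floor of 3 reads in each library before culture. Of the other 7 members, none shares more than 4.23% of its windows.

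Aldh3a1 (chr11:61207537-61218421, plus strand), an aldehyde dehydrogenase strongly induced by AhR in liver and best known from the cornea, was read at a low level. It had normalized counts of 6.67, 13.6, 10.1, 10.0 and 17.9 before culture and of 9.72, 7.58, 20.9 and 17.5 after it, resting on 7 to 23 reads a sample. The groups overlapped throughout. The means were 11.7 ± 4.26 (SD, n = 5) and 13.9 ± 6.32 (SD, n = 4), with a log2 fold change of 0.20 and a standard error of 0.38. A change was not detectable at this depth and spread.

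Set side by side, the order of the 9 genes per kilobase of merged exon was Ahr, Tiparp, Arnt, Cyp1a1, Ugt1a6b, Cyp1b1, Aldh3a1, Ugt1a6a and Ahrr before culture. The order and the overlaps given here depend on that length, which is 8007 bases for Arnt, 9441 for Ahrr and 4358 for Tiparp. Their longest transcripts have 4325, 5099 and 4191 bases, and the order was not examined on that length. Ahr (1468 ± 92.9 per kilobase, SD, n = 5) and Tiparp (1119 ± 73.3) were clear of each other and of Arnt (296 ± 10.1) in every sample. Below Arnt, Cyp1a1 (18.2 ± 19.8) overlapped Ugt1a6b (16.5 ± 4.95), and Cyp1b1 (8.82 ± 1.70), which lay below Ugt1a6b without overlap, overlapped Aldh3a1 (6.01 ± 2.20), as did Ugt1a6a (5.54 ± 1.08). Ahrr (1.76 ± 0.72) lay below the ranges of all the others. After culture Ahr (471 ± 28.9, SD, n = 4) and Tiparp (441 ± 19.7) overlapped. Arnt (272 ± 29.2) came next and Ahrr (168 ± 27.2) had moved from the ninth place to the fourth, each without overlap with its neighbours. Cyp1a1 (102 ± 31.9), Cyp1b1 (65.6 ± 6.73), Ugt1a6b (41.8 ± 16.2) and Ugt1a6a (27.0 ± 5.42) followed, each overlapping the next, and Aldh3a1 (7.17 ± 3.25) lay below them all.

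**Figure D4:**
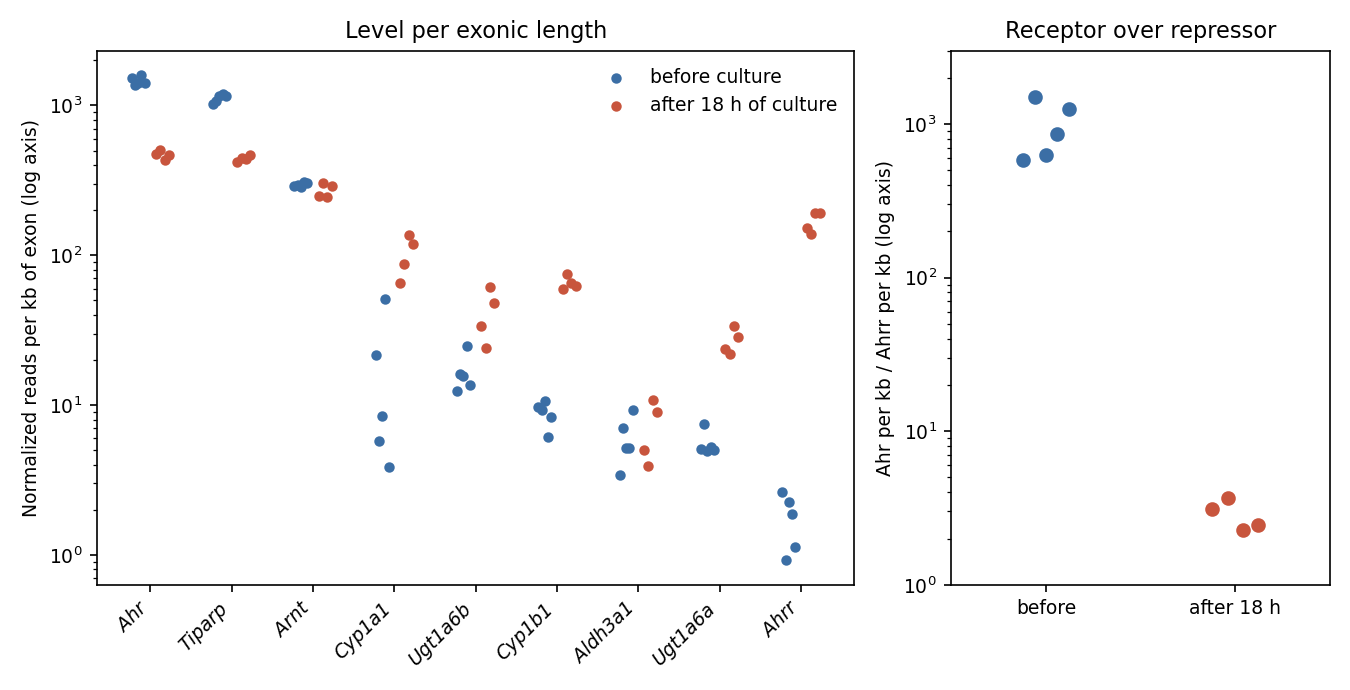
Left, normalized reads per kilobase of merged exon (log axis) for the 9 genes in every sample, ordered by the mean before culture. Right, Ahr per kilobase over Ahrr per kilobase in every sample (log axis), from 585 to 1498 before and from 2.29 to 3.65 after culture.

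By the rule applied to all genes (limma adjusted p under 0.05), 7 of the 9 members were called, 5 higher (Ahrr, Cyp1a1, Cyp1b1, Ugt1a6a and Ugt1a6b) and 2 lower (Ahr and Tiparp). Over the 18202 genes tested 68.8% were called, 34.2% higher and 34.6% lower. The groups did not overlap for 6 of the 9 members, 4 higher and 2 lower, against 57.3% of all tested genes. Since the members were selected on this contrast, nothing is read from these counts. The median log2 fold change of the members was 1.28, beside 0.0065 over all tested genes. Without replicate 2 after culture Arnt was called too, at a log2 fold change of −0.19.

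Genes whose levels over the 9 samples were most like those of the members were found by Pearson correlation of log2(value + 1), a description in which the difference between the groups dominates. For Ahr they were Ppt1, Hlcs and Wdfy4 (each r = 0.998), for Ahrr Hsf2, Synpo2 and Bcl2l14 (r = 0.998, 0.997 and 0.996), for Cyp1b1 Zdhhc24, 1600012H06Rik and Tsku (0.999, 0.998 and 0.996), and for Tiparp Tiam2, D16Ertd472e and Arsb (0.998, 0.997 and 0.997). With each group's mean subtracted, the likest genes were others: Tm6sf1 for Ahr (r = 0.937), Tmem150cos for Ahrr (0.970), Wdr46 for Cyp1b1 (0.982) and Ipo7 for Tiparp (0.984). These samples share libraries and scaling, and the best of many genes is always high.

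The other genes of the pathway were read from 3 lists of genes that are no members, tested in the same fit over all genes. In that fit 34.2% of all tested genes were higher and 34.6% lower, with a median log2 fold change of 0.0065. The list of 21 genes that hold, modify or assist the receptor had 9 genes higher, 5 lower and 7 not called, with a median log2 fold change of −0.0010. Src, the kinase released from the receptor complex by ligand, was the only one called with at least a 2-fold change, from 1275 ± 244 (SD, n = 5) to 3062 ± 102 (SD, n = 4, limma adjusted p = 7.09e-07). Of the chaperones of the resting receptor, 3 are named here after their values were seen, and they differed in direction. Hsp90aa1 fell from 7743 ± 784 to 6269 ± 637 (limma adjusted p = 0.00998). Hsp90ab1 had 28936 ± 1479 before and 26609 ± 2424 after culture (limma adjusted p = 0.217), and the co-chaperone gene Ptges3 rose from 3047 ± 247 to 4538 ± 315 (2.12e-05).

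Other reported targets of AhR went in both directions. Of 25 listed, 20 passed the filter, and 11 of these were higher, 6 lower and 3 not called. Their median log2 fold change was 0.84, beside 0.0065 over all tested genes, of which 34.2% were higher and 34.6% lower. Ugt1a1, Ugt1a7c and Ugt1a9, all called higher, share exons with the members Ugt1a6a and Ugt1a6b, so they may not be separate readings. Nqo1, a quinone reductase that NRF2 also induces, rose 22.3-fold, from 42.3 ± 6.65 (SD, n = 5) to 944 ± 179 (SD, n = 4, limma adjusted p = 5.62e-11). Scin, which encodes the actin-severing protein scinderin, rose 17.7-fold, from 452 ± 91.5 to 7986 ± 1118 (limma adjusted p = 3.12e-11). Socs2, an inhibitor of cytokine signalling that also stands on the list of mature dendritic cell markers, rose 5.76-fold, from 912 ± 75.5 to 5248 ± 361 (limma adjusted p = 1.75e-11). Of the 14 called with at least a 2-fold change, 8 are named, and Ugt1a9, described with the Ugt1a cluster, is the fourth of those that rose.

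In the other direction, the EGF receptor ligand Areg fell from 426 ± 64.6 (SD, n = 5) to 48.1 ± 11.6 (SD, n = 4, limma adjusted p = 3.02e-09) and Hes1, a repressor induced by Notch, from 625 ± 70.7 to 95.5 ± 17.1 (1.54e-09). The amino acid transporter gene Slc7a5 fell from 4413 ± 552 to 891 ± 31.1 (limma adjusted p = 1.21e-10) and Nedd9, a scaffold of focal adhesions, from 4185 ± 232 to 1851 ± 44.7 (3.26e-09). Cyp1a2, the third enzyme of the CYP1 family and mainly a liver gene, had no read before culture and 1 or 2 reads a sample after it, below the floor.

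The enzymes of tryptophan breakdown, which can supply ligands, also split. Of 18 names 17 matched a row, and of the 14 that passed the filter 5 were higher, 4 lower and 5 not called. Their median log2 fold change was 0.17, beside 0.0065 over all tested genes, of which 34.2% were higher and 34.6% lower. Ido1, which opens the kynurenine pathway, rose 49.1-fold, from 20.1 ± 7.56 (SD, n = 5) to 987 ± 158 (SD, n = 4, limma adjusted p = 2.78e-10). Its paralog Ido2 had 1 to 7 reads a sample before and 787 to 1280 reads after culture (limma adjusted p = 1.01e-10). Tdo2, the liver enzyme for the same step, rose from 9.33 ± 2.34 to 45.1 ± 12.1 (limma adjusted p = 1.36e-05) and Il4i1, a secreted oxidase of aromatic amino acids, from 14.7 ± 6.22 to 62.4 ± 13.1 (6.15e-05). Like Socs2, Il4i1 also stands on the list of mature dendritic cell markers. Kmo, which takes kynurenine further down the pathway, fell 12.1-fold, from 3296 ± 176 to 271 ± 30.2 (limma adjusted p = 1.96e-12), and Maob, a monoamine oxidase, fell from 31.9 ± 11.2 to 4.16 ± 2.37 (5.17e-05).

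**Figure D5:**
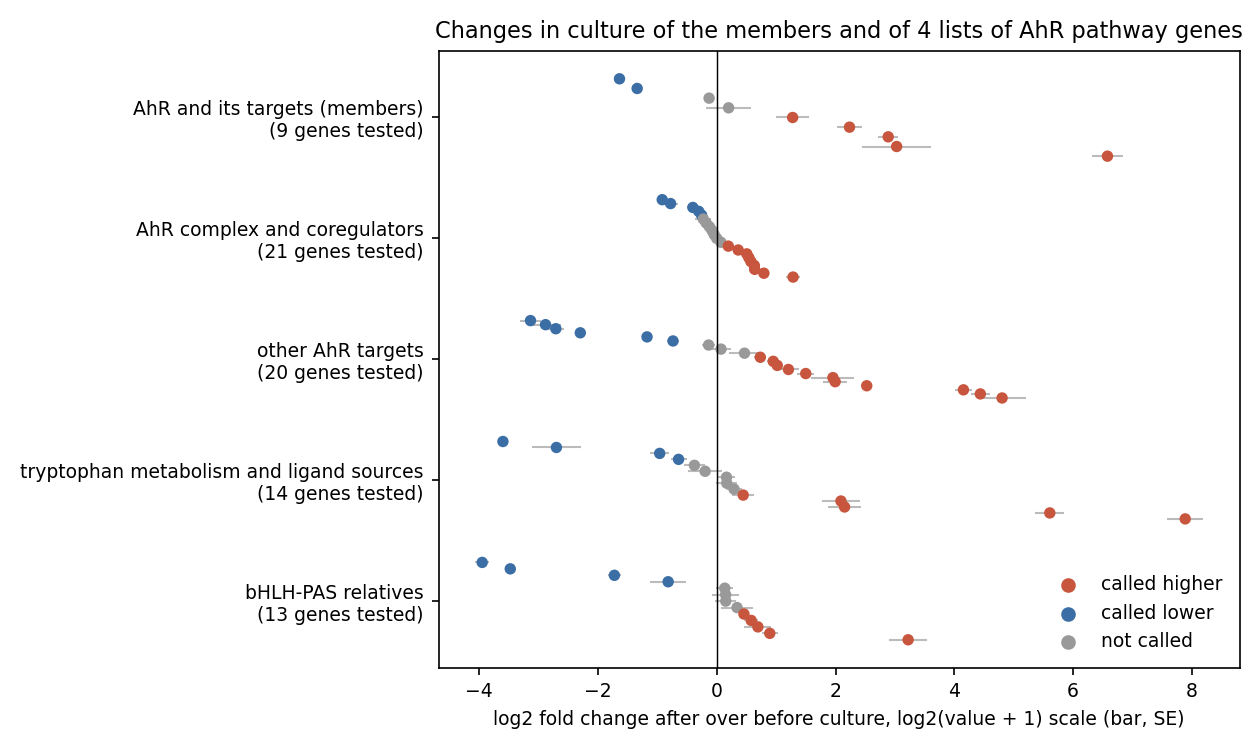
Log2 fold change after over before culture (x axis, log2(value + 1) scale) with its standard error for the 9 members and for the tested genes of 4 lists of pathway genes, 1 point per gene, coloured by the call in limma (adjusted p under 0.05). The members run from −1.64 (Ahr) to 6.58 (Ahrr), and each list holds genes called in both directions.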

How the data were processed

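Total RNA of 9 samples was sequenced. The values deposited by the authors are a normalized signal, each gene's read count divided by 1 factor per sample, and per the submitters' processing notes DESeq2 and the build GRCm38 were used. The aligner, counter and annotation are not given in the sources used here. In every column 100% of values were whole multiples (tolerance 1e-06) of 1 step, from which whole reads were recovered. The 3782 rows without a symbol (3.87 to 10.9% of reads) were left out. Libraries of 1 group all differed by more than sampling noise (16 pairs, chi-square over its degrees of freedom at least 7.02). Samples were grouped by title. Genes with a mean of at least 10 (18202) were fitted with limma 3.58.1 in R 4.3.3 on log2(value + 1), two-sided, with a mean-variance trend and Benjamini-Hochberg adjustment over all of them. A fold is the ratio of group means.

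The members and lists were chosen with earlier results of these data known. The rule for naming took all members, and of each list the called genes with at least a 2-fold change, at most 8 by adjusted p. On the list of 18 bHLH-PAS names 2 are older symbols without a row. Exon lengths, overlaps and shared 50-base windows came from GENCODE M21 (GRCm38) and promoters from RefSeq (GRCm38.p6). The alternatives were other pseudocounts, filters and scalings, edgeR 4.0.16 and DESeq2 1.42.0 on recovered reads, replicate blocks and leaving out each sample. Leaving out both libraries numbered 4 was chosen after seeing the data. The scripts were tested on simulated data.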

Additional observations from a re-analysis of the deposited data

Results flagged for a closer look

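Each of the 9 genes was screened in each group for a sample far from the rest, 18 groups in all, where chance alone gives about 1 in 20. In 1 of them the highest sample stood apart: Ugt1a6a in replicate 2 before culture, at a normalized count of 32.2 on 26 reads, with the other 4 samples before culture at 21.3 to 22.6. The gap was 0.882 of the range of the group. All 4 samples after culture lay above it, from 94.8 to 146.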

How the results depend on the processing

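The count of called members was 7 under every alternative except without replicate 2 after culture (8), of 9 tested or, with a minimum mean of 50, of 8. Over all genes 9925 of 13551 tested (minimum mean of 50) to 14150 of 31592 (no filter) were called, beside 12524 of 18202. The totals called on the 4 pathway lists stayed within 1.5 times. By direction, upper quartile scaling gave 10 higher and 3 lower for the receptor complex list (9 and 5), and a minimum mean of 50 gave 3 and 3 for the tryptophan list (5 and 4). The log2 fold changes of the 7 called members, and of the 19 genes named from the pathway lists by the rule, kept their sign. For some of the 19 the size varied widely. Outside the leave-out fits Ugt1a9 ran from 2.13 to 7.84, Ido2 from 6.30 to 8.16 and Maob from −2.97 to −1.68. Other named genes were not run. Outside the leave-out fits, Ahr ran from −1.66 to −1.53, Tiparp from −1.35 to −1.23, Ahrr from 6.05 (pseudocount of 8) to 6.69, Cyp1a1 from 2.37 to 3.15, and Cyp1b1 from 2.73 to 3.03. Upper quartile scaling moved the median of all genes by 0.11, and with it Ahr (−1.53), Tiparp (−1.23) and Arnt (−0.021). A pseudocount of 8 gave 1.96 for Ugt1a6a. Leaving out 1 sample gave 2.65 to 3.55 for Cyp1a1 and −0.020 to 0.43 for Aldh3a1, and leaving out both libraries numbered 4 gave 3.39 and −0.053.

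The replicate block by title number called 11656 genes, and by library number 12865, each leaving out the unpaired sample before culture. Deviations from the group means correlated at −0.213 to 0.0807 for title numbers and 0.0447 to 0.349 for library numbers, where every sample after culture correlated best with its own number. The labels do not say what either number stands for, and neither numbering reached 0.1 in all 4 pairs. Samples were therefore not treated as paired in the main fit, though pairing by library number remains possible. Depth limits Aldh3a1 and, before culture, Ahrr and Cyp1a1, with as few as 6 or 7 reads a sample.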

Other observations

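The relatives of AhR and ARNT in the bHLH-PAS family, which includes the hypoxia and clock factors, were read as a further list. Of 13 that passed the filter 5 were higher, 4 lower and 4 not called. Their median log2 fold change was 0.15, beside 0.0065 over all tested genes, of which 34.2% were higher and 34.6% lower. Epas1, which encodes the hypoxia factor HIF-2α and is abundant in endothelium, fell 15.6-fold, from 17264 ± 3093 (SD, n = 5) to 1104 ± 101 (SD, n = 4, limma adjusted p = 1.41e-11), beside endothelial markers of which all 10 were called lower. The part of endothelial RNA in this was not tested. The clock repressors Per1 (15290 ± 1106 to 1372 ± 118, limma adjusted p = 1.83e-12) and Per2 (914 ± 141 to 274 ± 23.8, 1.61e-08) fell. Npas4, an early-response factor best known from neurons, rose from 2 to 7 reads a sample to 45 to 101 (limma adjusted p = 1.18e-06).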
